A study of Homo sapiens with 6 samples.

Results

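The endothelial lineage transcription factors studied here are TAL1, LYL1, LMO2, GATA2, SOX7, SOX18, NR2F2, PROX1, HHEX and MEF2C, DNA-binding proteins or their cofactors that specify or maintain blood and lymphatic vessel cells. They were found by gene symbol in the count table, where 9 of the 10 had a row among 18544 genes; PROX1 was not analysed here. Both groups were HMEC-1 cells, a human dermal microvascular endothelial line immortalised with the SV40 large T antigen, grown in MCDB131 medium with 5.5 mM glucose and transduced with a lentivirus. Set7KD cells (n = 3 libraries) carried an shRNA against SETD7, also called Set7, an enzyme that monomethylates lysine 4 of histone H3 and lysines of other proteins. NTC cells (n = 3 libraries) carried a non-targeting shRNA. HMEC-1 is 1 line, and the labels do not say how many different hairpins were used. The libraries are described as biological triplicates without further detail, so each p-value reflects only how far these libraries spread, which may be technical. The question is which of these factors differ in transcript level when SETD7 is knocked down.

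TAL1 and LYL1 are closely related basic helix-loop-helix proteins that bind E-box DNA together with E-proteins such as TCF3, TCF4 and TCF12. LMO2 does not bind DNA itself but bridges TAL1 or LYL1 to a GATA factor, in endothelium usually GATA2. It also binds the LIM-binding protein LDB1. SOX7 and SOX18 belong to the F group of SOX factors, NR2F2 (COUP-TFII) is a nuclear receptor known for venous identity, HHEX is a homeodomain repressor of early endothelium and blood, and MEF2C is a MADS-box factor of the vessel wall and of muscle.

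Library sizes were even, with 16385878 to 16953331 gene counts, so that 1 count corresponded to 0.059 to 0.061 CPM (counts scaled to library size and composition). SETD7 itself stood at 32.8 ± 9.59 CPM in Set7KD and 178 ± 2.18 CPM in NTC (mean ± SD, n = 3 each). Endothelial markers were present in both groups. CDH5, the endothelial cadherin, averaged 119 CPM in Set7KD and 206 CPM in NTC, and VWF, the von Willebrand factor gene, 10.1 CPM in Set7KD and 9.70 CPM in NTC. PECAM1, CLDN5 and SELE were not analysed here. Of 29 endothelial marker symbols 24 were tested, and their summed level was 1209 to 1287 CPM in Set7KD and 1182 to 1441 CPM in NTC (exact two-sided permutation test, p = 0.4).

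In Set7KD, TAL1 and HHEX fell and NR2F2 rose, while the other 6 factors did not pass the test. A gene was called at an adjusted p under 0.05 in edgeR's quasi-likelihood test, with adjustment over all 18482 genes tested. All 9 factors passed the filter on low counts. Without the block 2 of them were lower and 1 was higher, against 18.6% lower and 17.6% higher among all genes tested and 36.2% in either direction. The share of called factors was thus close to the share in the whole table. For 4 of the 9, all Set7KD libraries lay on one side of all NTC libraries, against 47.4% of all genes. The median log2 fold change (Set7KD over NTC) was -0.18 over the factors and -0.01 over all genes tested. In bulk libraries, fewer cells with a transcript and less of it per cell cannot be told apart.

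**Figure D1:**
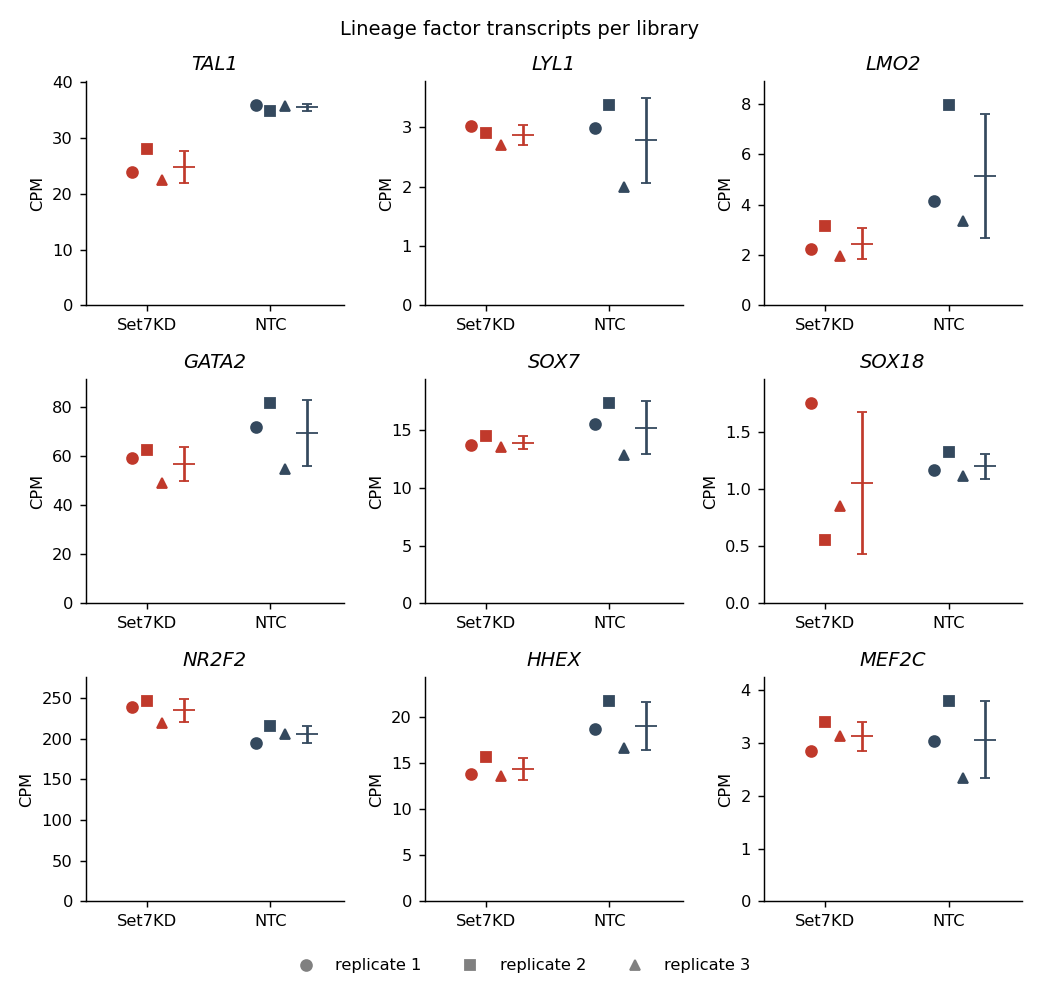
CPM of each lineage factor (vertical axes, linear from 0) in the 3 Set7KD and 3 NTC libraries, with symbols for the replicate number and a bar for the mean ± SD. TAL1, HHEX and LMO2 lie lower in every Set7KD library, NR2F2 lies higher in every one, and the groups overlap for the other 5.

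TAL1 (ENSG00000162367.6), the central helix-loop-helix factor of the group, had 23.9, 28.0 and 22.4 CPM in Set7KD, against 35.8, 34.7 and 35.7 CPM in NTC. The NTC libraries lay close together and every Set7KD library was below all of them. The Set7KD mean was 69.8% of the NTC mean, and the log2 fold change was -0.52 (standard error 0.08, 95% interval -0.70 to -0.34, edgeR adjusted p = 0.000213). TAL1 was called in all 17 alternatives run, with log2 fold changes between -0.63 and -0.43. An antisense row, RP1-18D14.7, shares 845 bases of annotated exon with TAL1 and could exchange reads with it if the counting ignored strand. It held 17 to 22 counts in Set7KD and 23 to 44 counts in NTC, against 365 to 453 counts of TAL1 in Set7KD and 577 to 613 in NTC.

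LYL1 (ENSG00000104903.4), the close relative of TAL1, had 3.03, 2.90 and 2.69 CPM in Set7KD and 2.98, 3.37 and 1.99 CPM in NTC. The Set7KD libraries lay within the range of the NTC libraries. Its log2 fold change was 0.05, with a 95% interval of -0.38 to 0.48 and an edgeR adjusted p of 0.874, and the libraries held only 34 to 56 counts of it. In CPM per kb of annotated exon, TAL1 averaged 4.34 ± 0.51 in Set7KD and 6.22 ± 0.11 in NTC, and LYL1 0.92 ± 0.05 in Set7KD and 0.89 ± 0.23 in NTC (SD, n = 3). TAL1 therefore made up 82.5% of the summed level of both genes in Set7KD and 87.5% in NTC. Such shares depend on the length used. With the longest transcript as length, the NTC means were 7.09 for TAL1 and 1.8 for LYL1.

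HHEX (ENSG00000152804.6), the homeodomain factor, had 13.8, 15.7 and 13.6 CPM in Set7KD, against 18.7, 21.7 and 16.6 CPM in NTC. Every Set7KD library was below every NTC library, with a narrow gap between Set7KD replicate 2 and NTC replicate 3. The Set7KD mean was 75.5% of the NTC mean, and the log2 fold change was -0.40 with a standard error of 0.11 (edgeR adjusted p = 0.00885). The call was lost without NTC replicate 2, at an adjusted p of 0.0516, without both libraries numbered 1, at 0.114, and against a minimum fold of 1.2, at 0.175.

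The promoters of TAL1, HHEX and LYL1 are shown because TAL1 and HHEX fell together while LYL1, the relative of TAL1, did not pass. Each sequence is the 250 bases before the first start listed for the gene by RefSeq on GRCh38.p14, 5′ to 3′ on the gene's strand. These lie at chr1:47232336-47232585 on the minus strand for TAL1, chr10:92689705-92689954 on the plus strand for HHEX and chr19:13102859-13103108 on the minus strand for LYL1. Capitals mark GATAA on either strand, the core of the word that GATA factors bind, so that a match on the opposite strand reads TTATC.
TAL1: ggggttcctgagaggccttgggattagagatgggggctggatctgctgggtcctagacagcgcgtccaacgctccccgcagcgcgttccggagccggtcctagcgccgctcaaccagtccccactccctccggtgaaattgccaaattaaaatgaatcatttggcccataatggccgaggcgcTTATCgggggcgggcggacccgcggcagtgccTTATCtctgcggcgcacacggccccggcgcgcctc
HHEX: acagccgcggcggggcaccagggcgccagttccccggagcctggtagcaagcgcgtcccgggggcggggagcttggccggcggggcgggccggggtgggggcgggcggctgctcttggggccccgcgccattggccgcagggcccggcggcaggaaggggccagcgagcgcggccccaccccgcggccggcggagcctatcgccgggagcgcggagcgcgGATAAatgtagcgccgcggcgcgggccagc
LYL1: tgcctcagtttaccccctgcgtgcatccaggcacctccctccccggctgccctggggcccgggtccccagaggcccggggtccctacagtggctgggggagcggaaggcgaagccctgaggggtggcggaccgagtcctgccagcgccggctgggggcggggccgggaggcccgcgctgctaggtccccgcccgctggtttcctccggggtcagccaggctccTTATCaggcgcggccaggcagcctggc
The TAL1 promoter held 2 matches, which begin 67 and 35 bases before the start. HHEX held 1 match, 30 bases before its start, and LYL1 1 match, 27 bases before its start. Of 27305 RefSeq promoters of the same length, 21.0% held at least 1 match and 3.96% at least 2. RefSeq windows were searched for 6 of the 9 factors, and those of GATA2 and MEF2C held none. The NR2F2 window also held none, but its bases read as coding sequence of NR2F2, so it does not stand for the promoter of this gene. Among the other words searched, the E-box CANNTG occurred in TAL1 (1 match) but in neither HHEX nor LYL1, against 62.2% of all promoters. GGAAG, a word of ETS factors, occurred once each in HHEX and LYL1 and not in TAL1, against 65.1% of all promoters; no match overlapped a match of another word. The words were chosen with the sequences and the fold changes in view, and a match is only a run of letters.

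LMO2 (ENSG00000135363.7), the bridging protein of the TAL1 complex, had the lowest log2 fold change of the 9 factors, -1.06 with a standard error of 0.38. It had 2.24, 3.15 and 1.96 CPM in Set7KD, against 4.15, 7.95 and 3.33 CPM in NTC. The groups did not overlap, but NTC replicate 2 stood far above the other NTC libraries, and the gap between Set7KD replicate 2 and NTC replicate 3 was small. LMO2 did not pass edgeR without a block, with an adjusted p of 0.064 and a 95% interval of -1.95 to -0.18. With the replicate number as a block the log2 fold change was -1.05 with a standard error of 0.17, and the adjusted p was 0.000198. DESeq2 called it with an adjusted p of 0.00269, and limma-voom with 0.0304. Without NTC replicate 2 the log2 fold change was -0.61 (adjusted p = 0.0462), and without NTC replicate 3 it was -1.30 (adjusted p = 0.00597). LMO2 was called in 7 of 17 alternatives. Among the others, edgeR's adjusted p was 0.177 without Set7KD replicate 1 and 0.197 without Set7KD replicate 3. It was 0.216 without both libraries numbered 1 and 0.165 against a minimum fold of 1.2. The depth was low, with 32 to 51 counts in the Set7KD libraries and 57 to 132 counts in the NTC libraries.

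GATA2 (ENSG00000179348.7), the GATA factor that LMO2 links to TAL1, had 59.0, 62.4 and 48.9 CPM in Set7KD and 71.8, 81.5 and 54.9 CPM in NTC. Replicate 3 was the lowest library of each group and replicate 2 the highest, so that the groups overlapped although each Set7KD library lay below the NTC library with its number. The log2 fold change was -0.29 with a standard error of 0.17, and GATA2 did not pass (edgeR adjusted p = 0.249). With the replicate block it was -0.28 with a standard error of 0.06, and the adjusted p was 0.000798. GATA2 was also called without NTC replicate 3, at a log2 fold change of -0.43 and an adjusted p of 0.00356. A row on the opposite strand, RP11-475N22.4, shares no exon bases with GATA2 and had a log2 fold change of 0.02 (edgeR adjusted p = 0.932).

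The replicate block thus changed the calls of LMO2 and GATA2. Libraries with the same number deviated together across genes, which is the ground for the block, but the labels leave the meaning of a number unsaid. With it 5 of the 9 factors were called, TAL1, HHEX, LMO2 and GATA2 lower and NR2F2 higher, against 42.8% of all genes tested. TAL1, LMO2 and GATA2 were each lower in Set7KD within each of the 3 numbers. The share of all genes with 1 direction in all 3 numbers was not computed. It is at least 47.4%, the share whose groups did not overlap, so this is no trait of these factors. The ratio of Set7KD to NTC was 0.667, 0.806 and 0.625 for TAL1 at numbers 1, 2 and 3. It was 0.539, 0.397 and 0.588 for LMO2, and 0.822, 0.766 and 0.892 for GATA2. HHEX showed 0.737, 0.722 and 0.818. Those of LYL1, SOX7, SOX18 and MEF2C lay below 1 at some numbers and above 1 at others.

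**Figure D2:**
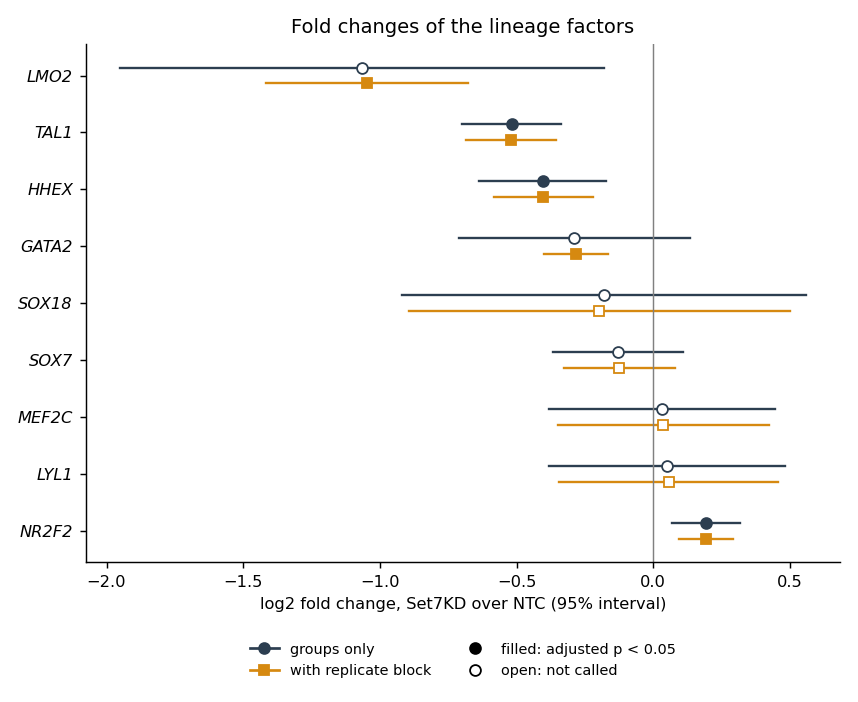
Log2 fold change of each factor, Set7KD over NTC (horizontal axis), with its 95% interval from edgeR, by groups only (circles) and with the replicate number as a block (squares); filled symbols have an adjusted p under 0.05. The block leaves the fold changes nearly in place and narrows the intervals of LMO2 and GATA2, which become filled.

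**Figure D3:**
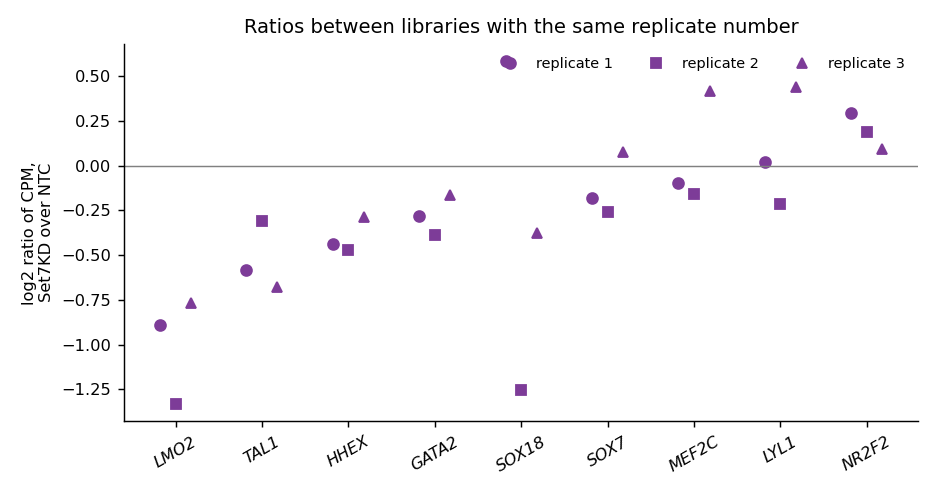
Log2 ratio of CPM, Set7KD over NTC (vertical axis), between libraries with the same replicate number, for each factor. All 3 points lie below 0 for LMO2, TAL1, HHEX and GATA2 and above 0 for NR2F2, while the points of the other 4 factors fall on both sides of 0.

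NR2F2 (ENSG00000185551.8), the venous nuclear receptor, had 239, 246 and 219 CPM in Set7KD, against 195, 216 and 206 CPM in NTC. It was the one factor that rose. The difference was small beside its level, at a log2 fold change of 0.19 (standard error 0.06, edgeR adjusted p = 0.0174), and the Set7KD mean was 114% of the NTC mean. Every Set7KD library lay above every NTC library, by a narrow margin between Set7KD replicate 3 and NTC replicate 2. The call was lost without Set7KD replicate 1 (adjusted p = 0.075), without NTC replicate 1 (0.11), without both libraries numbered 1 (0.292) and against a minimum fold of 1.2 (1.0). Its relatives did not pass: NR2F1 had a log2 fold change of 0.01 and NR2F6 of -0.05 (edgeR adjusted p = 0.946 and 0.639). The antisense row NR2F2-AS1, which shares no exon bases with NR2F2, held 41 to 44 counts in Set7KD and 36 to 50 counts in NTC.

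SOX7 (ENSG00000171056.6) and SOX18 (ENSG00000203883.5), the SOX factors of endothelium, did not pass. SOX7 had 13.7, 14.5 and 13.5 CPM in Set7KD and 15.5, 17.3 and 12.8 CPM in NTC, and its log2 fold change of -0.13 had a 95% interval of -0.37 to 0.11 (edgeR adjusted p = 0.399). The groups overlapped through NTC replicate 3. Another row on the same strand, CTD-2135J3.4, shares 1268 exon bases with SOX7, so that reads could have been split between them. That row had 6.41, 6.80 and 6.43 CPM in Set7KD and 8.48, 9.39 and 6.32 CPM in NTC. SOX18, which acts upstream of PROX1 in lymphatic development in the mouse, was near the lower limit of measurement, with 29, 9 and 14 counts in Set7KD and 20, 22 and 19 counts in NTC. The Set7KD libraries spread more widely than the NTC libraries, and the 95% interval of the log2 fold change ran from -0.92 to 0.56 (edgeR adjusted p = 0.72). SOX17, the remaining SOX factor of this group, is a relative outside the 9 factors and rose, with 3.63, 2.84 and 3.37 CPM in Set7KD against 2.16, 2.35 and 1.29 CPM in NTC. Its log2 fold change was 0.76 with a standard error of 0.22 (edgeR adjusted p = 0.013). The call of SOX17 was lost in 5 of 16 alternatives, without Set7KD replicate 1 (0.0593), NTC replicate 3 (0.0547), both libraries numbered 1 (0.105) or numbered 3 (0.0926) and against a minimum fold of 1.2 (0.0624).

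MEF2C (ENSG00000081189.9), the MADS-box factor, had 2.84, 3.40 and 3.12 CPM in Set7KD and 3.04, 3.79 and 2.34 CPM in NTC. The Set7KD libraries lay inside the NTC range, and the log2 fold change of 0.03 had a 95% interval of -0.38 to 0.44 (edgeR adjusted p = 0.919). MEF2C was a minor member of its family in these cells, at 0.27 ± 0.02 CPM per kb in Set7KD and 0.26 ± 0.06 CPM per kb in NTC, which is 0.79% of the summed level of MEF2A, MEF2B, MEF2C and MEF2D in Set7KD and 0.837% in NTC. MEF2A, the most abundant MEF2 gene, rose, with 134, 134 and 138 CPM in Set7KD against 100.4, 108 and 101 CPM in NTC. Its log2 fold change was 0.39 with a standard error of 0.05 (edgeR adjusted p = 5.08e-05), and it was called in all 17 alternatives. MEF2D fell, to 56.5 ± 3.02 CPM in Set7KD, against 68.0 ± 6.07 CPM in NTC, with a log2 fold change of -0.27 (edgeR adjusted p = 0.00862). That call was lost without both libraries numbered 1 (0.109) and against a minimum fold of 1.2 (0.644).

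Per kb of exon, the order of levels in NTC was NR2F2 (31.8 ± 1.63), GATA2 (15.6 ± 3.02), HHEX (7.53 ± 1.02), TAL1 (6.22 ± 0.11), SOX7 (4.73 ± 0.71), LMO2 (1.65 ± 0.79), LYL1 (0.89 ± 0.23), SOX18 (0.65 ± 0.06) and MEF2C (0.26 ± 0.06), each as mean ± SD over 3 libraries. Ranges between NTC libraries overlapped for LMO2 and LYL1, at 1.07 to 2.56 and 0.64 to 1.08, and for LYL1 and SOX18, at 0.60 to 0.71 for SOX18. In Set7KD the order was the same except that LYL1, at 0.92 ± 0.05, stood above LMO2, at 0.79 ± 0.20, although their ranges overlapped, as did those of LYL1 and SOX18. TAL1 and SOX7 were level with each other in Set7KD, at 4.34 ± 0.51 and 4.33 ± 0.17, while TAL1 was the higher in NTC. The lengths come from an annotation later than that of the counts, so these levels hold only as far as the gene models match.

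**Figure D4:**
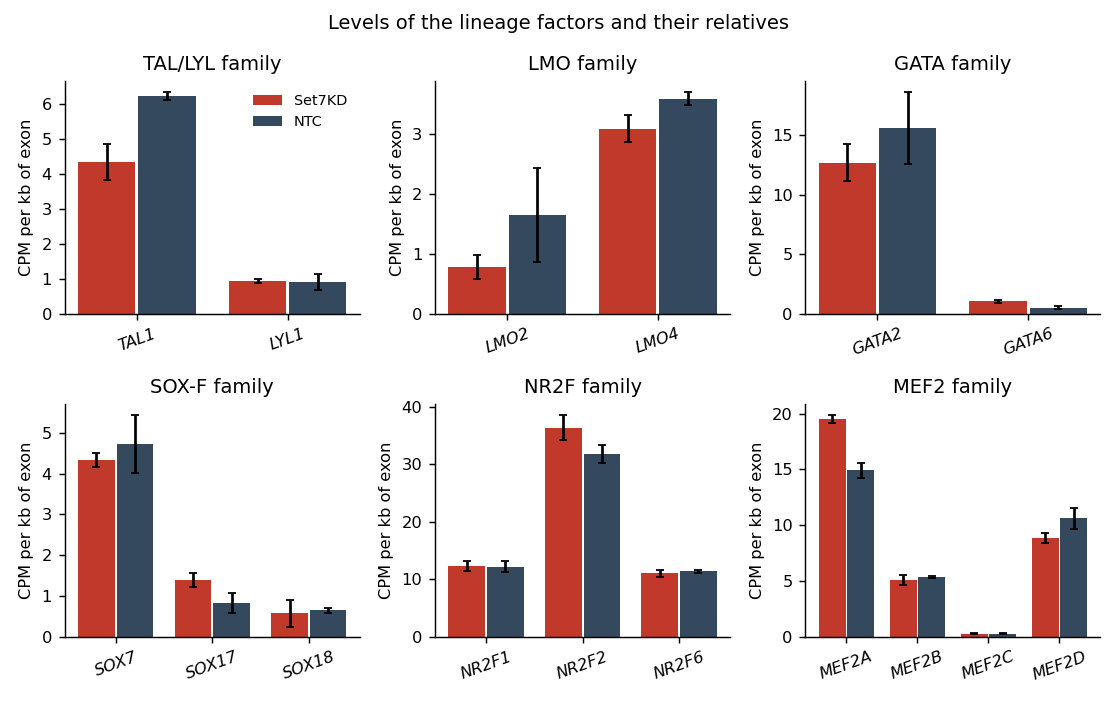
Mean level in CPM per kb of exon (vertical axes, linear from 0) of the lineage factors and of their relatives measured here, by family, in Set7KD and NTC, with error bars of 1 SD over 3 libraries. MEF2C is hardly visible beside MEF2A, and TAL1 is higher than LYL1 in both groups.

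Partners of the complex moved in both directions. Of 21 tested genes for E-proteins, LDB and SSBP cofactors, RUNX factors and corepressors, 4 rose and 4 fell, beside the 36.2% called among all genes, and their median log2 fold change was -0.11 against -0.01 over all genes. With the replicate block 4 were called higher and 6 lower, the 2 added being SP1 (-0.15, edgeR adjusted p = 0.0147) and ERG (-0.38, 0.000178), beside 42.8% of all genes. CBFB, the non-DNA-binding partner of RUNX factors, fell to 96.8 ± 9.99 CPM in Set7KD, against 154 ± 5.58 CPM in NTC. TCF4, an E-protein that pairs with TAL1, fell to 83.8 ± 9.74 CPM in Set7KD, against 113 ± 13.7 CPM in NTC, at a log2 fold change of -0.43 (edgeR adjusted p = 0.00992). The E-proteins TCF3 and TCF12 had log2 fold changes of 0.12 and 0.07 and did not pass. RCOR1, a corepressor, rose with a log2 fold change of 0.20 (edgeR adjusted p = 0.0121), and SSBP2, which stabilises LDB1, with 0.51 (0.0154). RCOR1 lost its call in 4 of 17 alternatives, without Set7KD replicate 3 (0.0614), NTC replicate 1 (0.0584) or both libraries numbered 1 (0.115) and against a minimum fold of 1.2. SSBP2 lost its call in 5, without Set7KD replicate 2 (0.0756), NTC replicate 1 (0.0547), both libraries numbered 1 (0.136) or numbered 2 (0.0889) and against the minimum fold (0.118). LDB1 itself, named after its values were seen, had a log2 fold change of -0.20 (edgeR adjusted p = 0.0321), but its groups overlapped and the call was lost in 8 of 17 alternatives. These were DESeq2 (0.0794), the minimum fold, leaving out Set7KD replicate 1, Set7KD replicate 3, NTC replicate 1 or NTC replicate 2 (0.103 to 0.145), and leaving out both libraries numbered 1 (0.275) or numbered 3 (0.0583). The count of called partners was 8, and it was 2 without NTC replicate 1, 4 without NTC replicate 2, Set7KD replicate 1 or Set7KD replicate 3, 5 by DESeq2 or without both libraries numbered 3, and 1 against a minimum fold of 1.2 or without both libraries numbered 1. Over these alternatives CBFB was always called, and TCF4 was lost without both libraries numbered 1 (0.086) and against a minimum fold of 1.2 (0.128).

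ID proteins pair with E-proteins and keep them from DNA, and ID1, ID2 and ID3 were, like GATA2, lowest in replicate 3 of both groups. ID1 had 84.6, 84.1 and 48.9 CPM in Set7KD and 164, 189 and 76.0 CPM in NTC. Its log2 fold change of -0.98 had a standard error of 0.46. None of the 4 ID genes was called by edgeR without the block, and none had an unadjusted p under 0.05; DESeq2 called none, and limma-voom called ID1 (adjusted p = 0.0309). With the block, ID1 at -0.94 and ID2 at -0.53 were called (edgeR adjusted p = 0.000124 and 0.00117). ID3 and ID4 did not pass in either fit. Without NTC replicate 3, ID2 and ID3 were called (edgeR adjusted p = 0.000638 and 0.00509).

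Regulators of MEF2 activity had a median log2 fold change of -0.08 over 11 tested genes. By edgeR 3 were called lower and 0 higher, beside 18.6% lower, 17.6% higher and 36.2% in either direction among all genes. The count was 0 against a minimum fold of 1.2, 1 by DESeq2, without Set7KD replicate 3 or without both libraries numbered 1 or numbered 3, and 4 with the replicate block, which added CREBBP (-0.12, edgeR adjusted p = 0.0408). HDAC5, a class IIa deacetylase that represses MEF2 factors, fell to 30.1 ± 2.39 CPM in Set7KD, against 39.6 ± 1.07 CPM in NTC, and lost its call against a minimum fold of 1.2 (edgeR adjusted p = 0.0867). HDAC9 had 2.26 ± 0.43 CPM in Set7KD and 3.35 ± 0.40 CPM in NTC (0.0332), and lost the call in 7 of 17 alternatives, by DESeq2 (0.116), against the minimum fold (0.152), and without Set7KD replicate 1, Set7KD replicate 3, NTC replicate 3 or both libraries numbered 1 or numbered 3 (0.0672 to 0.324). The coactivator gene EP300 had a log2 fold change of -0.15 (0.0465) and kept its call in 6 of 17 alternatives. HDAC4 and HDAC7 had log2 fold changes of -0.08 and -0.02 and did not pass.

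Of 9 tested relatives of the factors 3 rose and 1 fell, beside the 36.2% called among all genes, with a median log2 fold change of -0.05. Of these relatives 2 were called without both libraries numbered 1 or against a minimum fold of 1.2. The replicate block added LMO4, lower at -0.22 (edgeR adjusted p = 0.0388). Beside MEF2A, MEF2D and SOX17, GATA6, a GATA factor of smooth muscle and gut, rose to 4.08 ± 0.59 CPM in Set7KD, against 1.99 ± 0.51 CPM in NTC. The log2 fold change was 1.03 with a standard error of 0.20 (edgeR adjusted p = 0.00104). GATA6 thereby made up 7.50% of the summed level of GATA2 and GATA6 per kb in Set7KD and 3.12% in NTC.

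Genes that mark endothelial cells and their arterial, venous and lymphatic kinds changed in both directions. Of 24 endothelial markers 6 rose and 4 fell, beside the 36.2% called among all genes, with a median log2 fold change of 0.13. The replicate block added ERG, lower at -0.38 (edgeR adjusted p = 0.000178). TIE1, an endothelial receptor tyrosine kinase, fell to 87.3 ± 3.48 CPM in Set7KD, against 144 ± 6.74 CPM in NTC (edgeR adjusted p = 3.42e-07). FLT1, a VEGF receptor, rose to 9.44 ± 0.64 CPM in Set7KD, against 5.28 ± 0.85 CPM in NTC, and ECSCR, an endothelial surface protein, had a log2 fold change of 0.39. PLVAP, the protein of fenestral diaphragms, rose to 4.79 ± 1.82 CPM in Set7KD, against 0.926 ± 0.208 CPM in NTC. Named after its values were seen, CDH5 fell with a log2 fold change of -0.80 (edgeR adjusted p = 0.00371), a call lost without both libraries numbered 2 (0.0564).

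Among 14 arterial genes 7 rose and 5 fell, beside the 36.2% called among all genes. The median size of their log2 fold changes, sign left out, was 0.89, against 0.21 over all genes tested. The list was chosen with earlier results of these data known, so this difference cannot be read as a trait of arterial genes. With the replicate block 6 were called higher and 6 lower, since CXCL12 lost its call (1.24, edgeR adjusted p = 0.061) and HES1 gained one (-0.94, 9.95e-05). The calls of NOTCH1 and CXCL12 were each lost in 7 alternatives, and those of NOTCH4 and JAG2 in 9. Some changes rest on low levels, such as CXCR4 at 0.20 CPM in Set7KD and HEY2 at 0.35 CPM in NTC. JAG1, a Notch ligand, had 151, 126 and 144 CPM in Set7KD against 63.6, 67.4 and 57.9 CPM in NTC, and EFNB2, the arterial ephrin, 75.7, 70.3 and 80.8 CPM in Set7KD against 39.4, 36.0 and 40.7 CPM in NTC. NRP1 and UNC5B rose with log2 fold changes of 0.60 and 0.86. DLL4, the arterial Notch ligand, also named after its values were seen, fell to 0.73 ± 0.37 CPM in Set7KD, against 3.12 ± 0.91 CPM in NTC (log2 fold change -2.07, edgeR adjusted p = 0.000257). Of 7 venous genes 1 rose and 1 fell, NRP2 with a log2 fold change of 0.36 and FLT4 with -0.48, which are lymphatic markers as well, and the replicate block added EPHB4, lower at -0.14 (edgeR adjusted p = 0.0288). Among 9 lymphatic markers 2 rose and 2 fell, which were NRP2 and FOXC2 (0.44) and FLT4 and PDPN (-0.35). The venous and lymphatic counts stand beside the same 36.2% of all genes. LYVE1 and RELN were not analysed here. Without both libraries numbered 1, 7 arterial, 6 endothelial, 1 venous and 1 lymphatic gene were called, against 12, 10, 2 and 4 in the fit of all libraries. Tested against a fold of 1.2, 7 arterial, 6 endothelial, 0 venous and 0 lymphatic genes were called.

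**Figure D5:**
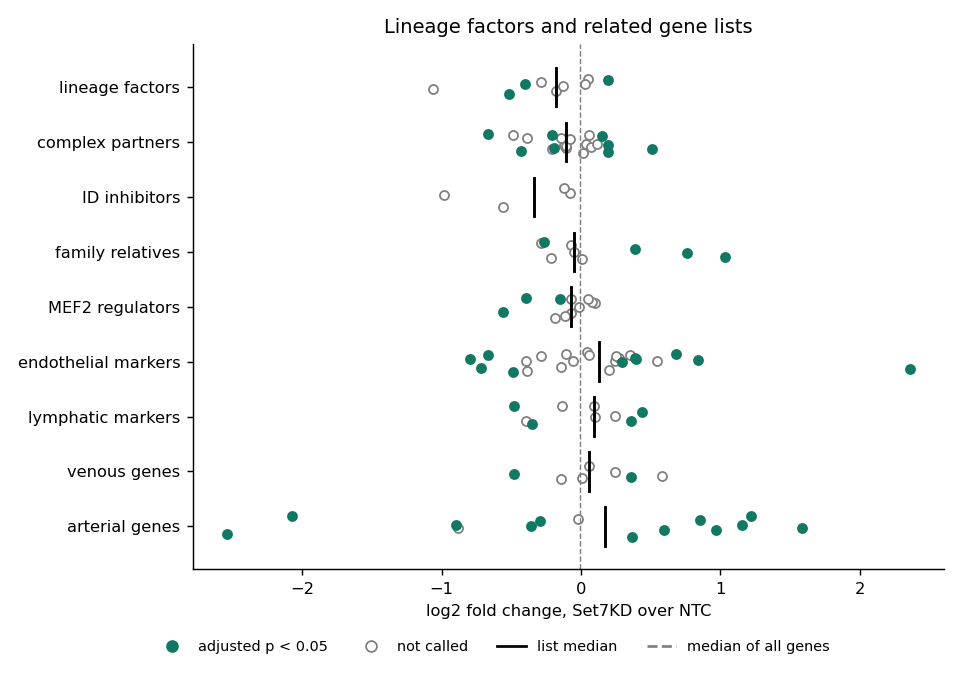
Log2 fold change, Set7KD over NTC (horizontal axis), of the lineage factors and of each list of related genes; points are genes, filled where the edgeR adjusted p was under 0.05, the black line is the list's median and the dashed line the median of all genes tested. Calls lie on both sides of 0 in the partner, relative, endothelial, lymphatic, venous and arterial lists.

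Markers of other cell types were measured beside these results. Of 11 tested markers of smooth muscle and pericytes edgeR called 5 higher and 0 lower, beside 17.6% higher and 18.6% lower among all genes. Of those called, ACTG2, CNN1 and MYOCD were low in NTC, at means of 0.94, 0.98 and 0.70 CPM. The tested markers summed to 779 to 1085 CPM in Set7KD and 391 to 441 CPM in NTC. With the replicate block CSPG4 (0.30, edgeR adjusted p = 5.61e-05) and SMTN (0.46, 3.85e-06) were called higher as well. TAGLN, an actin-binding protein, made up much of that sum, at 551 ± 116 CPM in Set7KD and 96.3 ± 16.8 CPM in NTC. Of 7 tested markers of fibroblasts 5 were called higher and 0 lower, beside the same 17.6% and 18.6%. They summed to 3224 to 4183 CPM in Set7KD and 1506 to 2070 CPM in NTC, most of it COL1A1. Both sums differed without overlap between the groups (exact two-sided permutation test, p = 0.1, the smallest that 3 against 3 allows). DES, DCN, FAP and TCF21 of these lists were not analysed here. No tested marker of either list had a mean of 0 in a group. Listed genes had at least 60 counts in total and passed a filter, so this says little. MYH11, a defining myosin of smooth muscle, averaged 9.54 CPM in Set7KD and 10.6 CPM in NTC. The part of these markers in the differences of TAL1, HHEX and NR2F2 was not tested. Blood cells also use TAL1, LYL1, LMO2, GATA2 and HHEX, and 2 of 16 blood markers were tested. They summed to 3.86 to 6.11 CPM in Set7KD and 7.14 to 8.19 CPM in NTC, these being CD14 and ITGA2B, and PTPRC and SPI1 were not analysed here. CD14 was called lower, at a log2 fold change of -0.51 (edgeR adjusted p = 0.0147), beside 18.6% lower among all genes. That call was lost in 6 of 17 alternatives. ITGA2B did not pass (edgeR adjusted p = 0.227). Epithelial markers, of which 3 of 8 were tested, summed to 229 to 250 CPM in Set7KD and 221 to 264 CPM in NTC, mostly KRT18. By edgeR 0 were called higher and 1 lower, beside the 36.2% called among all genes. The replicate block added KRT8, lower at -0.20 (edgeR adjusted p = 0.013).

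Profiles most like those of the called factors were sought among the 13093 genes that averaged 5 CPM or more, by the root mean square difference of log2 CPM over the 6 libraries after centring each gene on its own mean. For TAL1 these were YAP1 (0.032), a coactivator of the Hippo pathway, TRIM44 (0.036) and EIF4A2 (0.039). For HHEX they were SLC43A3 (0.016), PHF10 (0.024) and WWTR1 (0.028), which encodes TAZ, the relative of YAP1. For NR2F2 they were TPR (0.02), CTC-425F1.4 (0.021) and BCLAF1 (0.021). All 9 profiles contain the contrast between the groups, so their likeness is in part the shared direction of change. YAP1 had 155, 178 and 147 CPM in Set7KD against 238, 238 and 235 CPM in NTC, and WWTR1 104, 116 and 102 CPM in Set7KD against 140, 155 and 126 CPM in NTC. SLC43A3, the closest to HHEX, had 31.2, 36.3 and 31.05 CPM in Set7KD against 43.8, 49.5 and 38.4 CPM in NTC. The 9 genes were picked for likeness over these same 6 libraries, so an order of libraries shared with a factor follows from the choice. A link of YAP1 or WWTR1 to the factors was not tested.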

How the data were processed

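Poly-A RNA of HMEC-1 cells, 3 Set7KD and 3 NTC libraries, was sequenced with an Illumina mRNA-seq kit, per the labels' protocols. The authors deposited raw whole-number read counts for each gene; hg19, BWA and bedtools are named in the submitters' processing notes. BWA does not splice reads. A last row that names no gene, with 55.6 to 56.1% of the counts of each library, was left out. The sources used here do not say whether counting used strand. The lowest total of any listed gene over the 6 libraries was 60 counts.

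Groups came from the sample titles. The test was edgeR 4.0.16 under R 4.3.3, with group as the only factor, TMM scaling, filterByExpr, robust glmQLFit and glmQLFTest, and p-values were adjusted by Benjamini-Hochberg over 18482 genes. The standard error is the absolute log2 fold change divided by the square root of F, and intervals use the same test's degrees of freedom. The code was tested on simulated data. The common biological coefficient of variation was 0.0688. Chi-square per degree of freedom between libraries of one group was 2.98 to 9.85, so no library was a duplicate. The groups share replicate numbers. Deviations from the group mean were compared over the 11151 genes that averaged 10 CPM or more. Their correlation was 0.30, 0.42 and 0.34 between libraries of the same number and -0.36 to -0.04 between others. Every same-number pair was over 0.1, so the number was used as a block in an alternative fit. That choice came from the data and not from a label. Calls and standard errors come from the fit without the block unless the block is named. Beside each list the genes whose call the block changes are given.

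Alternatives were 2 other normalizations (upper-quartile and relative log expression), no filter, a filter that asks for 50 counts in all libraries of a group, DESeq2 1.42.0, limma-voom (limma 3.58.1), the replicate block, a minimum fold of 1.2 and each library left out. Dropping the Set7KD and NTC libraries of one number together was added after the data were seen. Lengths, chromosomes and overlapping exons come from GENCODE 29 (17753 of 18544 genes matched by Ensembl ID), which is on a later build than the counts. Promoters come from RefSeq (GRCh38.p14). The factors and lists were chosen with earlier results of these data known. All factors were named, up to 4 genes of smallest p per related list, other list members with values where they did not pass, markers of other cell types by level, and the 3 most alike profiles per called factor. LDB1, CDH5, DLL4 and genes named only for a low level or for lost calls lie outside that rule.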

Additional observations from a re-analysis of the deposited data

How the results depend on the processing

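TAL1 kept its direction and its call in all 17 alternatives, HHEX its call in 14 and NR2F2 in 13, while LMO2 was called in 7 and GATA2 in 3, each of these 5 in an unchanged direction throughout. The number of factors called was 3, and it was 5 with the replicate block and 1 against a minimum fold of 1.2; it was 2 to 5 with single libraries left out (5 without NTC replicate 3) and 1 to 5 with both libraries of a number left out (1 without number 1). Over all genes 6690 were called, 2217 against the minimum fold, 4987 to 6444 without single libraries and 2976 to 6150 without a number. Over the related lists together 41 genes were called, 16 against the minimum fold, 30 to 44 without single libraries and 18 to 39 without a number. Log2 fold changes of 3 uncalled factors crossed 0. Without single libraries LYL1 ran from -0.14 to 0.21, MEF2C from -0.13 to 0.21 and SOX18 from -0.75 to 0.12. Without a number LYL1 ran from -0.084 to 0.20, MEF2C from -0.12 to 0.15 and SOX18 from -0.78 to 0.20. The cause was not tested. LYL1, SOX18 and MEF2C, at 9 to 63 counts per library, were not tested under the filter of 50 counts. The order of levels per kb in NTC was the same with the longest transcript as length, for all 9 factors. Summed marker levels moved by less than the spread between libraries under both other normalizations.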
